A study of Homo sapiens with 6 samples.

Results

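The genes described are 39 members of the cancer-testis antigen families, out of 22465 genes measured on the arrays. They were the genes named by a single symbol of the MAGEA, MAGEB, MAGEC, GAGE, XAGE, PAGE, CT45A, CTAG or SSX families, and each was represented by the transcript cluster (the set of probes that the array assigns to 1 transcribed locus) with the highest mean signal. The choice used names only and no difference between the groups. MAGEA8-AS1, an antisense RNA at MAGEA8, and the pseudogene MAGEA5P also carried such names and stayed among the 39. RefSeq placed 38 of the 39 on the X chromosome, and SSX9 was not matched.

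MDA-MB-231, a human breast cancer line without hormone receptors, was transduced with a lentiviral vector that drove DAXX cDNA from the cytomegalovirus immediate early promoter with a FLAG tag, and total RNA was taken after 24 h of culture. DSM OE cells overexpressed a DAXX mutant whose SUMO-interacting motifs are disabled, DAXX OE cells overexpressed wild-type DAXX, and both were selected with puromycin at 2 µg/mL, with no deletion of the line's own DAXX gene named in the labels. Each group had 3 arrays, labelled as biological replicates of 1 stable population per construct, so that a difference between constructs and a difference between 2 populations cannot be told apart. Cells with a control vector were not analysed here, and no change against unmodified cells is given. Differences are DSM OE minus DAXX OE on the log2 scale.

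Cancer-testis genes are transcribed in germ cells and, in most somatic tissues, are kept silent by DNA methylation and repressive chromatin, a silencing that many tumors lose in part. MAGE proteins share a MAGE homology domain that binds RING-type ubiquitin ligases, whereas GAGE, XAGE and PAGE proteins are small and related to one another, and SSX proteins carry a transcriptional repressor domain. Peptides of several of these proteins are displayed to T cells on tumors. DAXX is a chaperone of a histone variant and works with ATRX and with SUMO-modified proteins in chromatin silencing.

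Most members had low signals, since 35 of the 39 lay below the median gene. Clusters shared by XAGE1 copies, which are not members, lay above it and are given further below. Of the 39 members, 34 lay above the median of the 23 background probe sets on all 6 arrays, 0 lay above the 95th percentile of those sets, and 35 lay below the median gene. Of 7 mesenchymal marker genes measured, 6 lay above the median gene on every array. Of 6 measured luminal and receptor genes, listed as lacking in this line, 2 did (EPCAM and GATA3), and ERBB2 was not measured. Of 3 blood cell genes and of 10 meiotic and postmeiotic germ cell genes, 0 did, and the mean level of the germ cell genes was 4.64 to 4.66 in DSM OE and 4.62 to 5.04 in DAXX OE. The array of DAXX OE replicate 1 differed from the rest. Its correlations with them over genes were 0.973 to 0.980, whereas the other arrays reached 0.998 among themselves, and its spread over genes was smaller (an SD of 1.63, against 1.82 to 1.85 on the other 5 arrays). This array was the highest of the 6 in 34 of the 39 members (87.2%), in 68.6% of genes below the median level and in 41.2% of all genes. The main results are therefore given with it and without it. The DAXX probes do not separate the 2 constructs. They read 9.31, 9.36 and 9.36 in DSM OE, against 8.68, 8.95 and 8.94 in DAXX OE, a difference of 0.49 ± 0.10 (SE, limma adjusted p = 0.416). Leaving out DAXX OE replicate 1 gave 0.40 with an adjusted p of 0.0145. The DAXX signal was thus not matched between the groups, and its part in the results was not tested. In RNA from a whole culture, more cells expressing a gene and more RNA per cell cannot be told apart.

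No member changed past an adjusted p of 0.05 (limma, Benjamini-Hochberg over all 22465 genes) when all 6 arrays were used. Over all genes 14 passed, or 0.0623%. At an unadjusted p under 0.05 there were 3 members, 1 higher and 2 lower in DSM OE, against 5.16% of all genes. Without DAXX OE replicate 1, MAGEC1 and MAGEC2 passed the adjusted threshold, both higher in DSM OE, and no member passed as lower. In that fit 0.872% of all genes passed as higher and 0.374% as lower. Without that array, 5 members were higher and 4 lower at an unadjusted p under 0.05, against 8.86% and 6.19% of all genes.

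**Figure D1:**
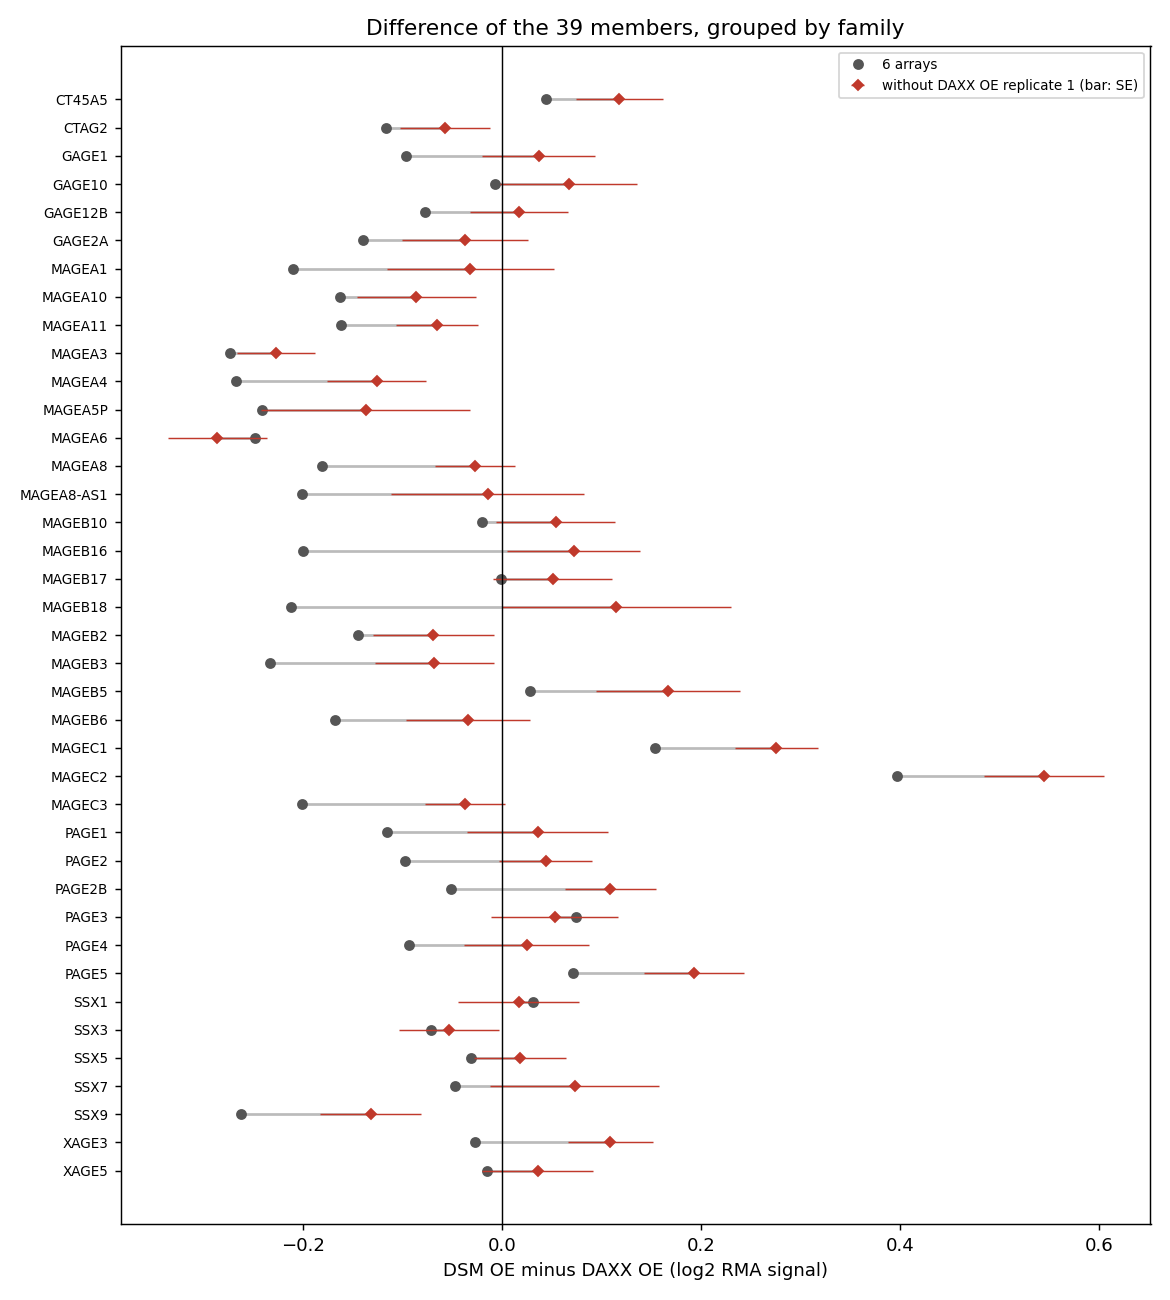
Differences of the 39 members on the log2 scale (DSM OE minus DAXX OE, horizontal axis), listed by family. Grey circles use all 6 arrays and red diamonds leave out DAXX OE replicate 1 (bars: SE). Of the circles 32 lie left of 0, with a median of -0.10, and of the diamonds 17 do, with a median of 0.02. The diamonds farthest from 0 are MAGEC2 and MAGEC1 on the right and MAGEA6 and MAGEA3 on the left.

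MAGEC2, whose protein binds the RING-type ligase and co-repressor TRIM28, had the largest difference of the members in either direction. Its signals were 6.43, 6.50 and 6.47 in DSM OE, against 6.37, 5.84 and 6.01 in DAXX OE. The groups did not overlap, but the gap to DAXX OE replicate 1 was narrow. The difference was 0.40 ± 0.14 (SE, 1.32-fold, unadjusted p = 0.0222 and adjusted p = 0.682 in limma). MAGEC2 was the only member beyond a fold of 1.3 at an unadjusted p under 0.05, the thresholds named in the study's methods, which 1.74% of all genes met as higher and 0.503% as lower. Without DAXX OE replicate 1 the difference was 0.55 ± 0.06 (SE, 1.46-fold, adjusted p = 0.0186).

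MAGEC1, a close relative of MAGEC2 that is known as an antigen of multiple myeloma, had a smaller positive difference. Its signals were 5.80, 5.87 and 5.80 in DSM OE, against 5.91, 5.55 and 5.54 in DAXX OE. DAXX OE replicate 1 was the highest of the 6 arrays and the other 2 DAXX OE arrays were the lowest, so the groups overlapped. The difference was 0.15 ± 0.12 with all arrays (SE, limma adjusted p = 0.682), while the fit that left out replicate 1 gave 0.28 ± 0.04 (SE, 1.21-fold, adjusted p = 0.0442). The third member of this family, MAGEC3, had signals of 5.79, 5.82 and 5.83 in DSM OE, against 6.34, 5.83 and 5.87 in DAXX OE. Its difference of -0.20 came down to -0.04 without DAXX OE replicate 1.

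MAGEA3 and MAGEA6, near-identical genes whose proteins bind TRIM28 and direct the ligase to the energy sensor AMPK, were the members with the lowest unadjusted p among those lower in DSM OE. MAGEA3 read 7.97, 7.96 and 7.93 in DSM OE, against 8.32, 8.18 and 8.18 in DAXX OE. MAGEA6 read 7.79, 7.80 and 7.68 in DSM OE, against 7.93, 8.04 and 8.04 in DAXX OE. For both genes every DSM OE array lay below every DAXX OE array. The differences were -0.27 ± 0.08 for MAGEA3 (SE, unadjusted p = 0.0115) and -0.25 ± 0.08 for MAGEA6 (SE, unadjusted p = 0.0196), both with an adjusted p of 0.682 in limma. Without DAXX OE replicate 1 they were -0.23 (adjusted p = 0.0613) and -0.29 (adjusted p = 0.0657), just short of the threshold. MAGEA6 is described here because it stands beside MAGEA3 and was chosen after its values were seen. Probes of the 2 genes can share transcripts, so these are not separate measurements.

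**Figure D2:**
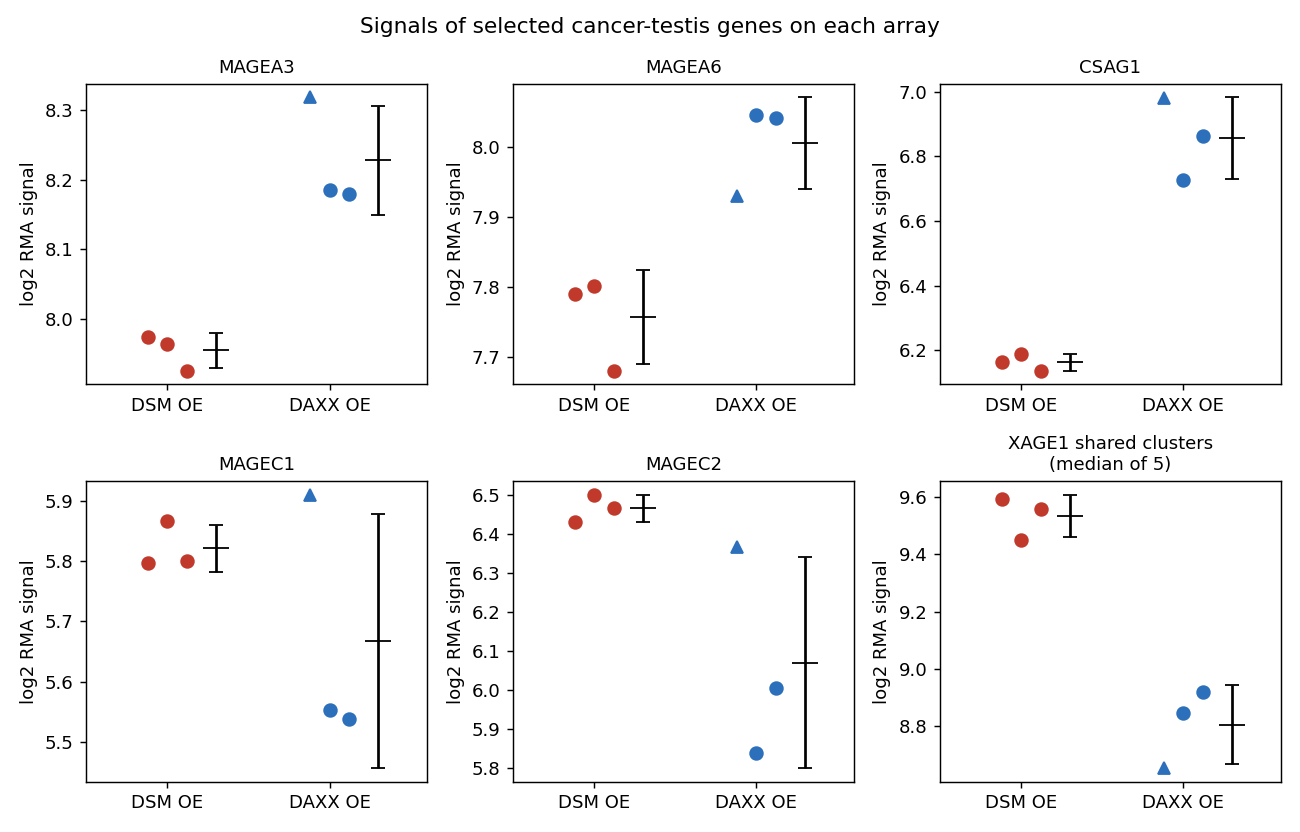
Log2 RMA signals (vertical axes, which differ between panels and do not start at 0) on each array for MAGEA3, MAGEA6, CSAG1, MAGEC1, MAGEC2 and the median of 5 clusters shared by XAGE1 copies, with DSM OE at left and DAXX OE at right. Points are arrays, triangles mark DAXX OE replicate 1, and black bars give the mean ± SD of 3 arrays. In the MAGEC1 panel the triangle lies above the DSM OE arrays, and in the MAGEC2 panel just below them.

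The windows upstream of MAGEA3, MAGEC1, MAGEC2, CSAG1 and XAGE1A are shown, a set chosen after the values were seen. Methylation of CpGs at such windows is known to keep these families silent in somatic cells. RefSeq (GRCh38.p14) gave a start for 30 of the 39 members, and 1 listed start per gene was used. Each sequence below is the 250 bases before the start, 5′ to 3′ on the gene's own strand. Capitals mark each CpG dinucleotide and any match, on either strand, to CCGGAA (an ETS factor core), TGACGT (a part of the CREB motif) or CACGTG (an E-box).
MAGEA3 (chrX:152698544-152698793, + strand): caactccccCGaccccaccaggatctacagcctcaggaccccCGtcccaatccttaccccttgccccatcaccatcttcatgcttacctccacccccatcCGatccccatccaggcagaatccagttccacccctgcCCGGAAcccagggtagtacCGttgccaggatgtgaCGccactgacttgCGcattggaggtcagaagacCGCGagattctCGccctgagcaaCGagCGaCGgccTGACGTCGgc
MAGEC1 (chrX:141903644-141903893, + strand): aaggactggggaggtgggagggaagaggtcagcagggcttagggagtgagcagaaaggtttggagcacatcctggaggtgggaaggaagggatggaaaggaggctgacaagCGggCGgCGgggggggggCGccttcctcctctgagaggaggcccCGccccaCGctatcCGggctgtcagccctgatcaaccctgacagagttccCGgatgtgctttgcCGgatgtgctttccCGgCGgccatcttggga
MAGEC2 (chrX:142205291-142205540, - strand): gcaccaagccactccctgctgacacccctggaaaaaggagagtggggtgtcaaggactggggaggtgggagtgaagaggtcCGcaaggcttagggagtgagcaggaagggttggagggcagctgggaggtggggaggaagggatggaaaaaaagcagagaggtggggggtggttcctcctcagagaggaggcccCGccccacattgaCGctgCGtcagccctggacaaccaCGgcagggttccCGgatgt
CSAG1 (chrX:152733722-152733971, - strand): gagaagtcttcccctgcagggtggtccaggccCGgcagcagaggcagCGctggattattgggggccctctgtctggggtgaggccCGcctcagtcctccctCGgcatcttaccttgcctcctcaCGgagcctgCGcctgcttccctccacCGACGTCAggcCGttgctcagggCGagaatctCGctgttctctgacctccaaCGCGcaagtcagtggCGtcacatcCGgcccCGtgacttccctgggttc
XAGE1A (chrX:52495627-52495876, + strand): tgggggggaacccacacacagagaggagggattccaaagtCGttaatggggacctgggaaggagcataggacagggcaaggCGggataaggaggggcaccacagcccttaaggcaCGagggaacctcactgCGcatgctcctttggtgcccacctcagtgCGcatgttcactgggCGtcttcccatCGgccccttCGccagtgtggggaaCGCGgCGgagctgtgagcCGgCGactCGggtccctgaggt
MAGEA6 (chrX:152769690-152769939, - strand) had the same letters as MAGEA3 over 250 of 250 bases. The pair was thus alike in this window. Identity between windows was counted over all aligned columns, gaps included, so an offset between 2 starts lowers it. By this measure 2 of 435 member pairs reached 90%, this pair and GAGE1 with GAGE2A (94.6%). Other near copies fell below that cut with gaps counted, among them GAGE12B with GAGE2A (234 identical bases over 266 columns). The count therefore does not set this pair apart. MAGEC1 and MAGEC2, which shared a direction, had 169 identical bases over 304 aligned columns, or 55.6% with gaps counted. The opening bases of the MAGEC1 window recur inside the MAGEC2 window, so the 2 windows are offset. The 55.6% is therefore not the likeness of the stretches that align. The MAGEA3 window held 15 CpGs and the MAGEC1 window 11, whereas the MAGEC2 window held 6.

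Over the 30 members the upstream windows held a median of 8 CpGs (quartiles 5 and 11), against a median of 11 (quartiles 3 and 23) over 27305 genes. CCGGAA was present in 3 members (MAGEA3, MAGEA6 and MAGEB6), or 10.0%, against 14.8% of all genes, and TGACGT in 3 members (MAGEA3, MAGEA6 and MAGEB2), or 10.0%, against 7.42%. CACGTG was present in 5 members, namely PAGE1, PAGE2B, PAGE4, PAGE5 and XAGE3, or 16.7%, against 6.49% of all genes. All 3 motifs contain a CpG themselves. These matches are descriptions of the sequence and say nothing of binding.

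All 9 MAGEA members had a negative difference with all 6 arrays (-0.27 to -0.16, median -0.21) and all 9 also without DAXX OE replicate 1 (-0.29 to -0.01, median -0.09). Under cyclic loess normalization, which removes differences that depend on the signal level, the median was -0.17. None passed the adjusted threshold of limma, and MAGEA3 and MAGEA6 were the only ones with an unadjusted p under 0.05 with all arrays. Without DAXX OE replicate 1, the differences of MAGEA1, MAGEA8 and MAGEA8-AS1 (-0.03, -0.03 and -0.01) were smaller than their SE (0.08, 0.04 and 0.10). MAGEA4 and MAGEA11 are described after their values were seen. MAGEA4, whose protein binds the ligase RAD18, had signals of 6.26, 6.28 and 6.30 in DSM OE, against 6.83, 6.47 and 6.34 in DAXX OE. MAGEA11, a co-regulator of the androgen receptor, had 5.82, 5.83 and 5.77 in DSM OE, against 6.16, 5.88 and 5.86 in DAXX OE. Their groups did not overlap, whereas those of the other 5 (MAGEA1, MAGEA5P, MAGEA8, MAGEA8-AS1 and MAGEA10) did. Genes below the median level also leaned negative with all arrays (73.4% negative), but not without DAXX OE replicate 1 (49.7% negative).

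The MAGEB genes, which lie on the short arm of the X chromosome, were split in direction once DAXX OE replicate 1 was left out. With all arrays 7 of 8 were negative (median -0.16), and without that array 3 were negative and 5 positive (median 0.05). MAGEB16 read 5.71, 5.87 and 5.66 in DSM OE, against 6.49, 5.69 and 5.66 in DAXX OE. One array was far above the others, and the difference was -0.20 with it and 0.07 without it. Of the 8 genes, 6 lay above the background median on every array, so the signals of the remaining MAGEB genes reached background.

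The PAGE genes all had a positive difference without DAXX OE replicate 1 (6 of 6, 0.02 to 0.19), whereas 4 of 6 were negative with it. PAGE5 read 5.99, 5.97 and 6.06 in DSM OE, against 6.18, 5.86 and 5.77 in DAXX OE. DSM OE lay between DAXX OE replicate 1 and the other 2 DAXX OE arrays. The difference was 0.07 with all arrays and 0.19 without replicate 1 (limma adjusted p = 0.149).

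The GAGE genes, a tandem cluster of near-identical copies, had small differences, none with an unadjusted p under 0.05. Their 4 members differed by -0.14 to -0.01 with all arrays and by -0.04 to 0.07 without DAXX OE replicate 1. GAGE12B read 5.97, 6.08 and 5.96 in DSM OE, against 6.27, 5.98 and 6.00 in DAXX OE. GAGE2A was represented by 4 clusters, whose differences were all negative with all arrays and between -0.14 and -0.06. Levels of single copies are uncertain here, because the probes of one GAGE gene can bind transcripts of the others.

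XAGE3 and XAGE5 were the single-symbol members of the XAGE family. XAGE3 read 5.49, 5.49 and 5.47 in DSM OE, against 5.78, 5.41 and 5.33 in DAXX OE, and its difference was -0.03 with all arrays and 0.11 without DAXX OE replicate 1. XAGE5 differed by -0.01 and 0.04.

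A further 33 clusters carried several symbols of these families and were not members. They are described because the near-identical copies that they measure would otherwise be missing, and they were chosen after their values were seen. The 5 clusters that list only XAGE1 copies (XAGE1A to XAGE1D) were all higher in DSM OE. Their median signal was 9.59, 9.45 and 9.56 on the DSM OE arrays, against 8.66, 8.85 and 8.92 on the DAXX OE arrays. The groups were clearly apart, and DAXX OE replicate 1 was here the lowest array, not the highest. XAGE1 encodes a small antigen, first found by its likeness to GAGE and PAGE, that is carried by several carcinomas.

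The XAGE1 differences were 0.58 to 0.73, or 1.49- to 1.66-fold, with unadjusted p of 0.000192 to 0.000407. After adjustment over 67528 clusters in limma, p was 0.287 to 0.444, and 0 of the 5 passed. In that fit 0.0341% of clusters passed. Without DAXX OE replicate 1 the differences were 0.56 to 0.67 (adjusted p = 0.0679 to 0.131), and 0 of 5 passed as higher, against 0.0637% of clusters. Under cyclic loess they were 0.46 to 0.61. All 5 were beyond a fold of 1.3 at an unadjusted p under 0.05, which 1.43% of clusters met as higher, and all 5 had groups that did not overlap, which 9.1% of clusters showed in this direction. The 5 clusters correlated with one another at 0.985 or more over the 6 arrays and share their transcripts, so they count as 1 measurement. The upstream window of XAGE1B (chrX:52517013-52517262, - strand) had the same 250 letters as that of XAGE1A printed above.

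The other 28 shared clusters differed by -0.34 to 0.02, and 27 were negative. Without DAXX OE replicate 1, 20 were negative. Those of MAGEA2 with MAGEA2B were the lowest, at -0.34 and -0.30 with all arrays and -0.21 and -0.17 without that array, and a cluster of MAGEA12 with CSAG4 differed by -0.30 and -0.19. None of the 28 was beyond a fold of 1.3 at an unadjusted p under 0.05. The shared MAGEA clusters thus lay on the same side as the single-symbol MAGEA members, except that those of MAGEA9 with MAGEA9B stood at 0.00 and 0.01 without DAXX OE replicate 1.

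SSX1, known as a fusion partner of SS18 in synovial sarcoma, read 5.97, 5.83 and 5.86 in DSM OE, against 5.83, 5.92 and 5.82 in DAXX OE. The groups overlapped and the difference was 0.03 ± 0.08 (SE, n = 3 each) and 0.02 without DAXX OE replicate 1. Of the 5 SSX members 4 were negative with all arrays (median -0.05), and without DAXX OE replicate 1 they were 2 negative and 3 positive (median 0.02). SSX9, singled out after its values were seen, was the lowest, with signals of 4.67, 4.60 and 4.54 in DSM OE, against 5.12, 4.72 and 4.75 in DAXX OE. Its groups did not overlap, and its difference was -0.26 with all arrays and -0.13 without DAXX OE replicate 1.

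CTAG2, a close relative of the antigen NY-ESO-1, read 6.88, 6.96 and 6.87 in DSM OE, against 7.14, 6.97 and 6.94 in DAXX OE. The groups overlapped, and the difference was -0.12 with all arrays and -0.06 without DAXX OE replicate 1. CT45A5 read 5.23, 5.30 and 5.22 in DSM OE, against 5.35, 5.12 and 5.14 in DAXX OE, with differences of 0.04 and 0.12.

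Over the 39 members the median difference was -0.10 with all arrays (32 negative), against 0.01 over all genes and -0.09 over genes below the median level. Without DAXX OE replicate 1 the median was 0.02 (17 negative), against 0.00 for both of those sets. Under cyclic loess it was 0.00 in the members and -0.01 over all genes. DAXX OE replicate 1 lay above the mean of DAXX OE replicates 2 and 3 by a median of 0.36 in the members and 0.26 in genes below the median level, and below it by 0.03 over all genes. The median of the members was thus near 0 without this array and after cyclic loess, and the reason was not tested. After cyclic loess the differences were -0.40 for MAGEA3, -0.37 for MAGEA6, 0.25 for MAGEC1 and 0.45 for MAGEC2. Their adjusted p in limma was 0.401, 0.191, 0.176 and 0.191, and none passed. The groups did not overlap for 1 member as higher (MAGEC2), against 13.7% of all genes, and for 6 as lower (MAGEA3, MAGEA4, MAGEA6, MAGEA11, MAGEC3 and SSX9), against 5.5%. Among the 11232 genes below the median level, where 35 of the members lie, 646 did not overlap as higher and 985 as lower. The MAGEC3 groups were barely apart, at 5.828 in the highest DSM OE array and 5.832 in the lowest DAXX OE array.

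**Figure D3:**
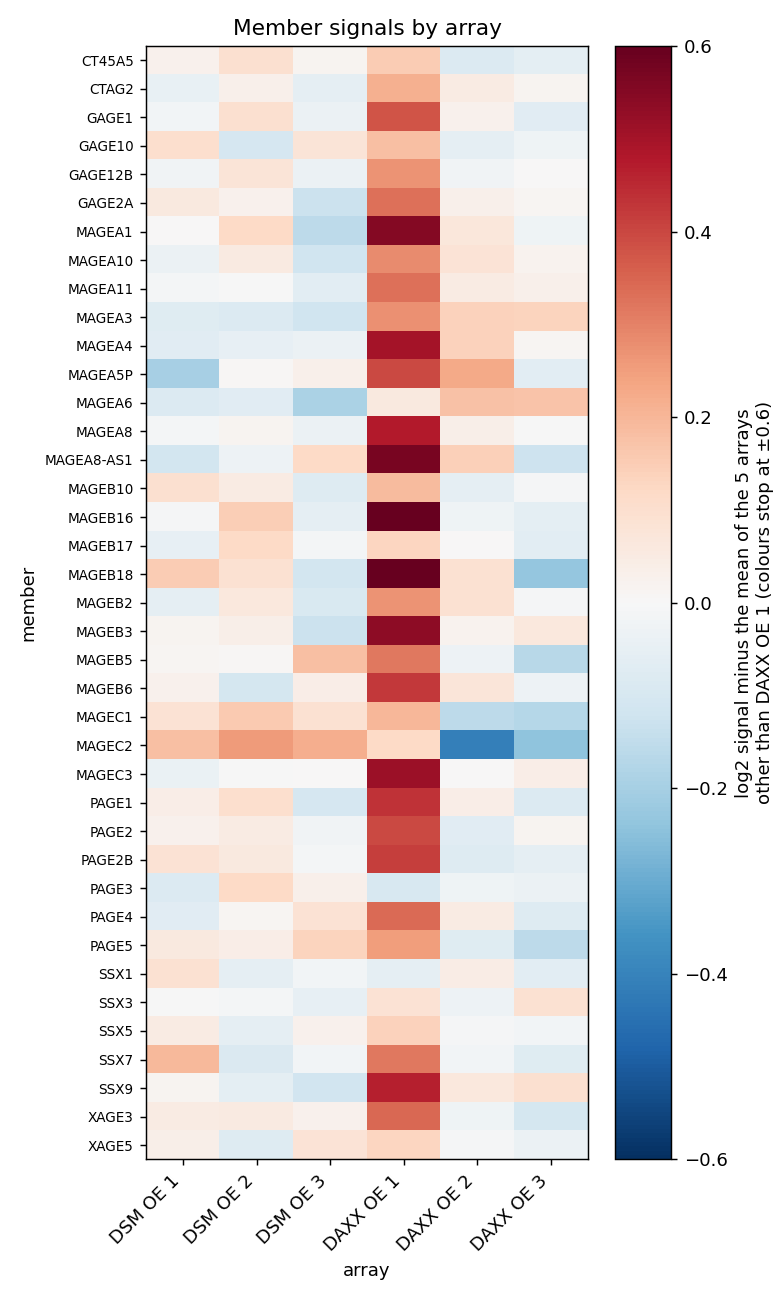
Signal of each of the 39 members (rows) on each array (columns, DSM OE at left), as the log2 difference from the mean of the 5 arrays other than DAXX OE replicate 1. Red is higher and blue lower. The DAXX OE 1 column is red in nearly every row, and it was the highest array in 34 of 39 members. In the MAGEC1 and MAGEC2 rows the other DAXX OE arrays are blue and the DSM OE arrays red.

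MAGEA3 and MAGEA6 lie close together on the long arm of the X chromosome, and the genes around them in RefSeq order were read as well, chosen after their values were seen. CSAG1, a cancer-testis gene found in chondrosarcoma, is the only gene measured under a single symbol between them, where MAGEA12, read only in a shared cluster, also lies. It read 6.16, 6.19 and 6.14 in DSM OE, against 6.98, 6.73 and 6.86 in DAXX OE. The groups were far apart, with DAXX OE replicate 1 close to its own group. The difference was -0.69 ± 0.09 (SE, 1.62-fold higher in DAXX OE, limma adjusted p = 0.109), which became -0.63 with replicate 1 left out (adjusted p = 0.00694). With all 6 arrays CSAG1 passed when the replicate number was a block (-0.69, limma adjusted p = 0.0458) and after cyclic loess (-0.66, limma adjusted p = 0.0221). The other alternatives with all 6 arrays did not pass, among them quantile normalization (limma adjusted p = 0.101) and the methods' t-test (adjusted p = 0.419). Of 16 alternatives in all, CSAG1 passed in 3. The upstream window of CSAG1, printed above, overlaps that of MAGEA12 (chrX:152733507-152733756, + strand) by 35 bases, and the 2 genes run in opposite directions from it.

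GABRA3, which encodes a subunit of the GABA-A receptor and lies between MAGEA10 and MAGEA3, read 6.11, 5.95 and 6.02 in DSM OE, against 6.05, 6.61 and 6.75 in DAXX OE. Here DAXX OE replicate 1 lay among the DSM OE arrays. The difference was -0.44 with all arrays (limma adjusted p = 0.682) and -0.65 without that array (adjusted p = 0.0145). The next measured genes beyond MAGEA6 were CETN2, NSDHL and ZNF185, which had positive differences of 0.43, 0.31 and 0.38 with all arrays and 0.30, 0.20 and 0.23 without DAXX OE replicate 1 (adjusted p = 0.0932 to 0.119). All 11 genes measured under a single symbol from MAGEA4 to MAGEA6 in gene order had a negative difference both with and without that array. The ends of this run were chosen from the signs. Over all genes 48.7% were negative with all arrays and 47.6% without that array, and among genes below the median level 73.4% and 49.7%. CNGA2, before MAGEA4, was also negative in both (-0.246 and -0.004). Beyond ZNF185, PNMA5, PNMA3 and MAGEA1 differed by -0.20, -0.10 and -0.21 with all arrays and by 0.02, -0.01 and -0.03 without that array.

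The neighbours of MAGEC2 were mixed in direction. MAGEC3, MAGEC1 and MAGEC2 follow one another in RefSeq among the measured genes. The long noncoding RNA LOC645188, next to MAGEC3, read 3.48, 3.66 and 3.91 in DSM OE, against 4.43, 4.20 and 4.33 in DAXX OE, a difference of -0.63 (limma adjusted p = 0.403) and of -0.58 without DAXX OE replicate 1 (adjusted p = 0.0997). On the other side of MAGEC2, the pseudogene RNA5SP516 differed by -0.31 with all arrays and -0.07 without that array, and SPANXN4, a testis gene, by 0.15 in both. The LOC645188 signals lie near or below the background median of 4.26 to 4.46.

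**Figure D4:**
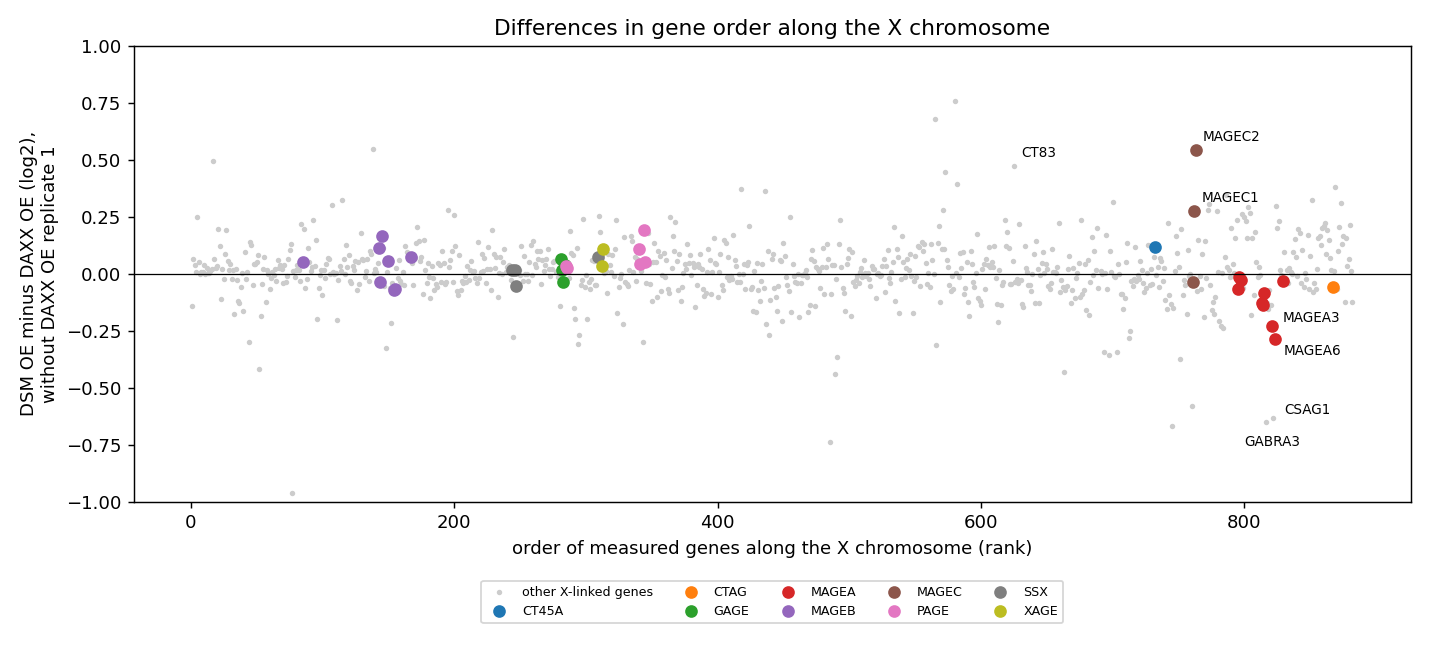
Differences without DAXX OE replicate 1 (vertical axis, DSM OE minus DAXX OE, log2) for 882 measured genes in their order along the X chromosome (horizontal axis, rank). Colored points are the 38 members with a place, by family, and grey points are other genes, of which 2 lie outside the axis. MAGEC1 and MAGEC2 lie above 0, and MAGEA3, MAGEA6, CSAG1 and GABRA3 lie below 0 at higher ranks.

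Among 46 of 61 listed cancer-testis genes of other families that were measured, 0 passed the adjusted threshold with all arrays, and CSAG1 alone passed without DAXX OE replicate 1. CSAG1 also passed with all arrays under the replicate block and after cyclic loess, but in no other alternative with all arrays, as given above. At a fold of 1.3 and an unadjusted p under 0.05, 1 was lower (CSAG1) and 1 was higher (CT83). CT83, an antigen of lung and other carcinomas, read 8.221, 7.999 and 8.100 in DSM OE, against 7.051, 7.506 and 7.762 in DAXX OE. The groups did not overlap, and the difference was 0.67 ± 0.18 (SE, 1.59-fold, limma adjusted p = 0.664), which came to 0.47 when DAXX OE replicate 1 was left out (adjusted p = 0.0902). TFDP3 and ZNF165 had the next lowest p, with differences of -0.32 and 0.26, which were -0.36 and 0.23 without DAXX OE replicate 1. The median of this list was -0.10 with all arrays and 0.02 without that array, close to the medians of the members.

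The MAGE relatives that somatic cells express widely did not pass either rule (0 of 9 measured of 11). The lowest p belonged to MAGEH1, with a difference of 0.20 (0.18 without DAXX OE replicate 1), and MAGED2, with 0.30 (0.17 without it). The median of the list was 0.14 with all arrays and 0.01 without that array. Of 27 measured chromatin and DNA methylation regulators of germline genes (30 listed), which include enzymes and factors that act against silencing as well as for it, DAXX itself and TET1, an enzyme that oxidises methylated cytosine, were higher at a fold of 1.3 and an unadjusted p under 0.05. TET1 read 7.22, 7.30 and 7.15 in DSM OE, against 6.46, 6.88 and 7.11 in DAXX OE, a difference of 0.40 with all arrays and 0.22 without DAXX OE replicate 1 (limma adjusted p = 0.682 and 0.260). RING1, a Polycomb ubiquitin ligase, had the next lowest p and differed by 0.26 and 0.15.

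TRIM28, named for its role as the ligase partner of MAGEA3, MAGEA6 and MAGEC2 and not by its p, read 10.74, 10.74 and 10.77 in DSM OE, against 10.61, 10.79 and 10.80 in DAXX OE, and the groups overlapped. Of 14 measured MAGE partners and turnover genes (15 listed), HUWE1 alone was past the fold of 1.3 at an unadjusted p under 0.05, with a difference of 0.39 and of 0.24 without DAXX OE replicate 1. BAG6 (0.22 and 0.15) and USP7 (0.33 and 0.16) had the next lowest p. Of 12 measured genes of antigen display (13 listed) none was, and the lowest p belonged to the peptide transporter TAP1 (0.29 and 0.15). In the blood cell list LYZ alone was (0.40 and 0.28), with signals of 5.68, 5.49 and 5.46 in DSM OE, against 4.91, 5.18 and 5.33 in DAXX OE. PTPRC and CD3E, the other measured members of that list, did not pass.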

How the data were processed

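Total RNA of MDA-MB-231 cells was profiled with 6 Affymetrix Human Transcriptome Arrays, 3 for DSM OE and 3 for DAXX OE. The authors deposited log2 signals made by RMA (background correction, quantile normalization of probes and a summary per cluster), and Affymetrix Expression Console 1.3 is the tool in the submitters' processing notes. The methods describe ComBat for arrays collected at different times; the sources used here do not say whether these arrays went through it, and no scan batch is labelled. As an RMA signal is not a count, precision is limited by how many arrays there are.

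Of 67528 transcript clusters, those with 1 symbol gave 22465 genes, each by its cluster of highest mean. The 2-sided comparison of the groups used lmFit and eBayes of limma 3.58.1 (R 4.3.3) with 4 residual degrees of freedom and Benjamini-Hochberg adjustment over all genes at 0.05. On simulated data it recovered 79 of 100 changes of 0.5 and 97 of 100 changes of 1. The simulated spreads left out DAXX OE replicate 1, so these counts do not describe the fit of the 6 real arrays. A second rule took the thresholds of the methods, a fold of 1.3 and an unadjusted p under 0.05. Replicates come from 1 population per construct, so p-values measure the spread between cultures.

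Members named in full were those past either rule with or without DAXX OE replicate 1, and the member of highest mean in each family. A part of that rule for members above the 95th percentile of background found 0. From each other list, up to 3 genes of lowest p were named, and TRIM28 was named outside that rule for its role. The members, gene lists and tests were chosen with earlier results of these data known. Upstream windows were aligned with Biopython 1.88. Same-numbered arrays of the 2 groups did not deviate together (r = -0.298 to 0.167), and numbers were not used for pairing in the main fit. The fit with the replicate number as a block is given only as an alternative.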

Additional observations from a re-analysis of the deposited data

How the results depend on the processing

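Leaving out each array in turn gave 1 to 280 genes past the adjusted threshold over all genes, against 14 with every array, and 0 to 2 members, against 0; both highest counts came without DAXX OE replicate 1. Members past a fold of 1.3 at an unadjusted p under 0.05 then numbered 0 to 1, against 1, and were 0 without DSM OE replicate 2 or 3 or DAXX OE replicate 2 or 3. Those with groups that do not overlap numbered 7 to 14, against 7, with 14 without DAXX OE replicate 3 and 13 without DAXX OE replicate 1 or DSM OE replicate 2. The DAXX difference was 0.40 to 0.53 with an array left out, 0.37 after cyclic loess and 0.29 as the mean of all its clusters, against 0.49, and passed only without DAXX OE replicate 1 (adjusted p = 0.0145) and among the 1953 genes above the 95th percentile of background (0.49, adjusted p = 0.00126).

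Over all genes, 40 passed with the replicate block, 25 after cyclic loess, 58 above the 95th percentile of background, 23 as single clusters, 1 by the methods' t-test, 2 at an adjusted p under 0.01 and 4 with limma's treat at 1.3-fold. Cyclic loess and quantile normalization each gave 2 members past the fold rule and 11 without overlap, and the methods' t-test gave 0 past the fold rule. By that t-test 2 members had p under 0.05 and 0 passed after Benjamini-Hochberg, against 1040 genes and 1 gene. The replicate block left the member counts at 0 and 1.

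The median difference over members ran between -0.18 and 0.02 over 13 alternatives. A filter at the background median, chosen after seeing the data, changed no count by over 1.5 times. Array weights did not converge (DAXX OE replicate 2 received a weight of 90.7) and were not used, and the filter at the 95th percentile left 0 members. Causes were not tested.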
